A study of Rattus norvegicus with 12 samples.

Results

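T-cell, B-cell and shared leukocyte genes were followed in the abdominal mammary glands of 4 groups of rats. The list held 33 genes chosen by name as lymphocyte genes, and 30 of them were measured among the 14217 genes of the table, 17 T-cell genes, 7 B-cell genes and 6 genes shared by lymphocytes and other leukocytes. Cd79a, Cd27 and Pax5 had no probe set carrying that symbol alone. All animals were female Sprague-Dawley rats fed their diet from postnatal day 30, ovariectomized on day 50 to take away ovarian estrogen and killed on day 64. The groups were casein diet plus 17β-estradiol (E2) from a mini-osmotic pump, soy protein isolate plus E2, soy protein isolate without E2 and casein without E2. E2 or, in the groups without it, vehicle was given for 14 days, with 14 days between ovariectomy and collection. Each group had 3 arrays of pooled RNA. Nothing in the labels says that the pools of a group came from different animals, and every p-value below speaks of the scatter among pools.

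T cells read antigen through a receptor that signals through the CD3 chains, the ζ chain encoded by Cd247, the kinases Lck and Zap70 and the adaptors they phosphorylate. B cells signal through membrane immunoglobulin held with the CD79 chains, and CD22, CD21 (Cr2) and CD20 (Ms4a1) sit beside that receptor. The abdominal and inguinal mammary fat pad of the rat holds a lymph node, an organ packed with both cell types, embedded in the fat around the ducts. The source label does not say whether the node was left in the tissue.

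Values were log2 values centred on each probe set's median over the arrays, so 0 is the middle array of that gene and no expression level can be read. Pools 2 and 3 of casein plus E2 gave almost identical arrays (SD of their difference 0.163, with 0 probe sets differing by over 1), so they were counted as 1 sample. Casein pool 3 carried liver transcripts (list mean 6.02), and soy pool 2 (3.61) and casein pool 2 (3.34) carried muscle transcripts. Affymetrix arrays also read bacterial and phage control transcripts, the Bio and Cre spike-ins. All 18 of these probe sets were below 0 on 6 arrays, called low spike-in arrays here, and all 18 were above 0 on the other 6, the high spike-in arrays. The low spike-in arrays were casein plus E2 pools 2 and 3, soy plus E2 pools 1 and 3, and soy pools 2 and 3. The high spike-in arrays were casein plus E2 pool 1, soy plus E2 pool 2, soy pool 1 and all 3 casein pools. The labels give no batch. The split is not a study group, and whether it came from the arrays, the RNA or the tissue was not tested. It is uneven over the groups, as no casein pool was a low spike-in array, so side and group cannot be fully told apart.

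The lymphocyte genes divided the arrays along that split. On the low spike-in arrays 27 to 30 of the 30 genes were above 0, against 1 or 2 of 30 on the high spike-in arrays. The mean over all 30 genes was -0.84, 0.56 and 0.55 in casein plus E2 pools, 1.07, -0.81 and 0.68 in soy plus E2 pools, -1.04, 1.52 and 1.87 in soy pools and -1.03, -0.76 and -0.82 in casein pools. Each group that received E2 or soy therefore held 1 pool near the level of the casein pools and others well above it, while the casein pools lay close together. The group means were -0.14 ± 0.99 for casein plus E2 (SD, n = 2), 0.31 ± 0.99 for soy plus E2, 0.78 ± 1.59 for soy and -0.87 ± 0.14 for casein (SD, n = 3 each).

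**Figure D1:**
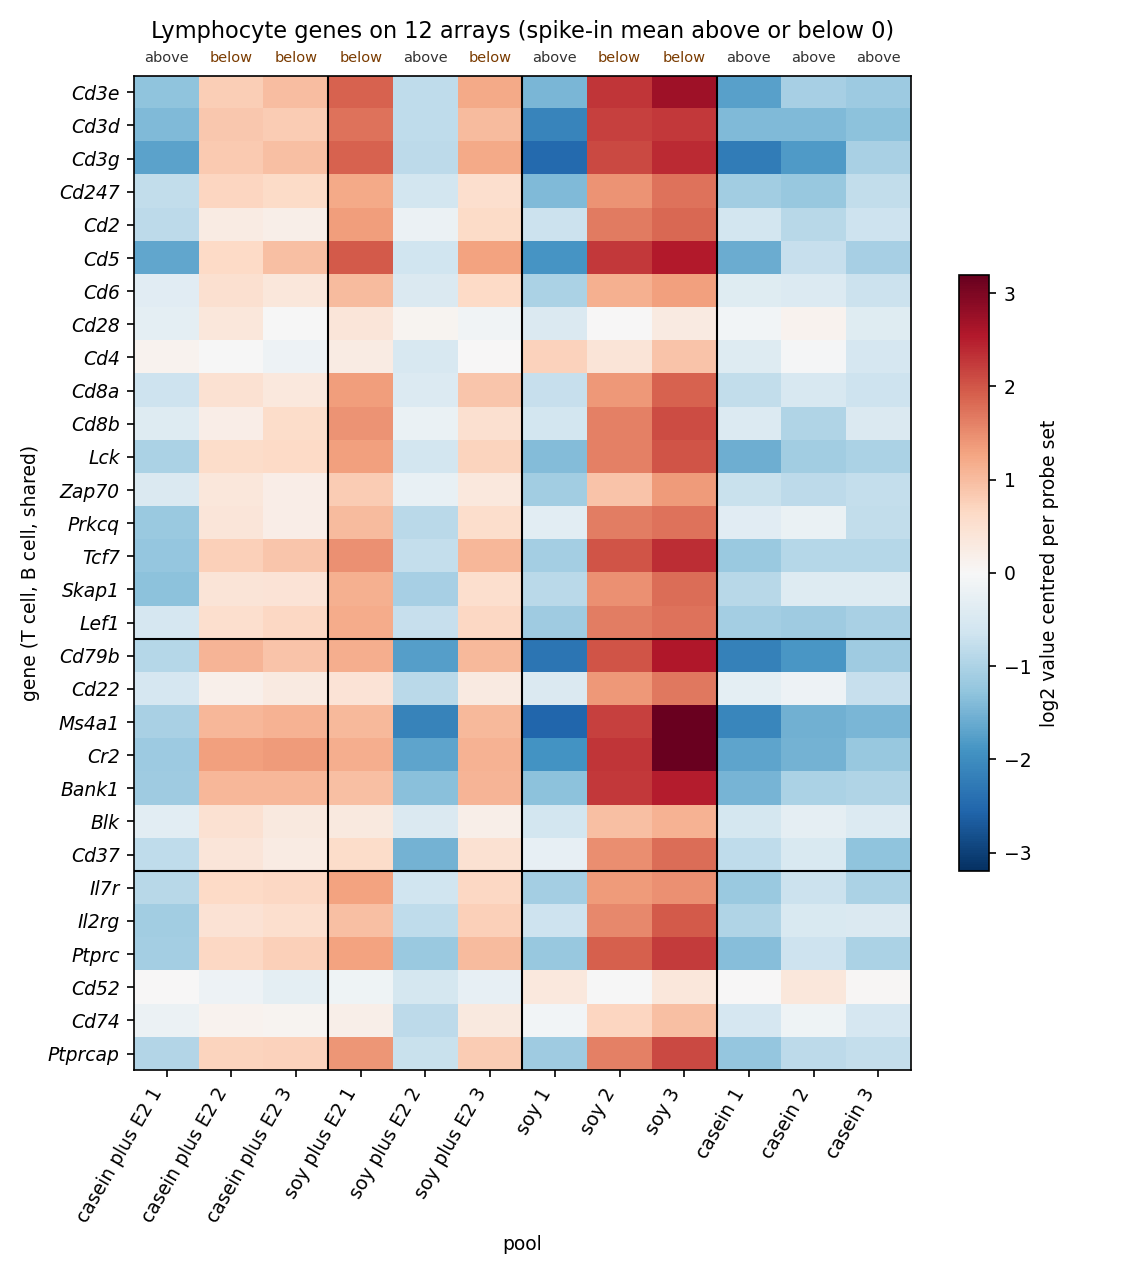
Heat map of the centred log2 value of each of the 30 lymphocyte genes (rows, grouped as T-cell, B-cell and shared) on each of the 12 arrays (columns, by group, with the sign of the spike-in mean written above each). Nearly every row is above 0 on the 6 low spike-in arrays and below 0 on the 6 high spike-in arrays, and Cd4, Cd28 and Cd52 do not follow that division.

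In 27 of the 30 genes every low spike-in array was higher than every high spike-in array, whereas 3.18% of all genes were divided in that direction (452 genes) and 0.387% in the other (55 genes). The 27 genes were 15 of 17 T-cell genes, all 7 B-cell genes and 5 of 6 shared genes. The median difference, low minus high spike-in arrays, was 2.10 over the 30 genes, 2.03 over the T-cell genes, 2.31 over the B-cell genes and 1.96 over the shared genes. These are descriptions of a split that was known to go with lymphocyte genes, and they carry no test. Ranked by this difference among 14217 genes, Cd3g was at position 1, Cd5 at 2, Cd3d at 3, Cd3e at 5, Cd79b at 8, Cr2 at 9 and Ms4a1 at 11, and 23 of the 30 genes were among the highest 100. In bulk tissue, more lymphocytes and more RNA of these genes per cell cannot be told apart.

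The promoters of Cd3g and Cd5, at positions 1 and 2 in that ranking, and of Cr2, the B-cell member with the largest difference that has a promoter entry, are shown as examples of genes that divide the arrays widely. Promoter sequence (250 bases before to 50 after the gene start, RefSeq, GRCr8) was matched for 22 of the 30 genes. Capitals mark the letters CAGGTG, the E-box bound by E2A-type factors of lymphocytes, on either strand (CACCTG is the other strand), and in Cd5 also GAGGAAGT, a PU.1-type ETS motif. The windows are all on the minus strand, at chr8:54183869-54184168 for Cd3g, chr1:216811160-216811459 for Cd5 and chr13:109244457-109244756 for Cr2, and are written in the direction of the gene.
Cd3g: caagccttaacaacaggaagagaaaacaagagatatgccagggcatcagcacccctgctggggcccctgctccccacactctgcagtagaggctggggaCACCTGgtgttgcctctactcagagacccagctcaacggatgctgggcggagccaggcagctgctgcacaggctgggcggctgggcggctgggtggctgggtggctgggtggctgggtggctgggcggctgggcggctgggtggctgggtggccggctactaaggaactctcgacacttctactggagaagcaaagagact
Cd5: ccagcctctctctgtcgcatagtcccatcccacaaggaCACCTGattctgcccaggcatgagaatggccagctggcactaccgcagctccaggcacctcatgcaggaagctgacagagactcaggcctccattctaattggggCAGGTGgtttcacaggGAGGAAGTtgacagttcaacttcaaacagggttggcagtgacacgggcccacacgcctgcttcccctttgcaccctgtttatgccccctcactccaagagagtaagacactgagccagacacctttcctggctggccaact
Cr2: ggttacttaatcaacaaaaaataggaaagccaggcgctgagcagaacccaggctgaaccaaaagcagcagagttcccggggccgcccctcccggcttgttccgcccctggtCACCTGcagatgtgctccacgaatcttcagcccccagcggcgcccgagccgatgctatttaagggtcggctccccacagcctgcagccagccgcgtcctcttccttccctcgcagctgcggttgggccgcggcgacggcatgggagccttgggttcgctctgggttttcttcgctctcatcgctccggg

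CAGGTG was present in the windows of 8 of the 22 genes (36.4%), against 18.8% of 33469 promoters of the same length. The 8 genes were Cd3g, Cd5, Cr2, Cd247, Lck, Lef1, Il7r and Cd28, the last of which did not divide the arrays. TGTGGT, a RUNX motif, was in 4 of 22 windows (18.2%, against 17.3% of all), and GAGGAAGT was in those of Cd5 and Cd37 (9.09%, against 2.42%). CTTTGAA, the TCF and LEF motif, was in those of Cd52 and Ptprc (9.09%, against 5.40%), and the EBF1 motif in that of Il2rg (4.55%, against 0.834%). The octamer ATTTGCAT (1.78% of all promoters), the ETS motif CCGGAAGT (3.81%) and the NF-kB motif (0.111%) were found in 0 of the 22. Several of these motifs are rare among all promoters, and counts in as few as 22 windows say little about the genes for any of the motifs. The windows of Cd3d and Cd3e, at positions 3 and 5 in the ranking, held no match to any of these motifs. Both strands were searched, and a match describes letters and not binding.

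Among the T-cell receptor genes, the CD3 chains carried the largest differences. Cd3g, the CD3 γ chain, was between 0.85 and 2.38 on the low spike-in arrays (median 1.88), against -2.48 to -0.85 on the high spike-in arrays (median -1.77). Its difference of 3.65 corresponds to 12.6-fold, and the arrays did not overlap. By group, Cd3g was -1.71, 0.85 and 0.97 in casein plus E2 pools, 1.88, -0.85 and 1.21 in soy plus E2 pools, -2.48, 2.12 and 2.38 in soy pools and -2.24, -1.82 and -1.05 in casein pools. Soy pool 1 was the lowest array of all, in the same group as the highest, soy pool 3.

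Cd3e, the CD3 ε chain, was -1.28, 0.78 and 0.99 in casein plus E2 pools, 1.90, -0.82 and 1.21 in soy plus E2 pools, -1.46, 2.30 and 2.70 in soy pools and -1.74, -1.07 and -1.16 in casein pools. Its difference was 3.12 (8.70-fold), and that of Cd3d, the δ chain, 3.16 (8.96-fold). Cd3g, Cd3d and Cd3e are direct neighbours on chromosome 8 in the RefSeq gene order. Cd247, the ζ chain, which lies elsewhere, differed by 2.17 and was also higher on every low spike-in array. The part of gene neighbourhood in these values was not tested.

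Surface receptors of T cells spanned a wider range. Cd5, an inhibitory receptor of T cells, differed by 3.28, and its relative and chromosomal neighbour Cd6 by 1.46. Cd2, an adhesion receptor, differed by 2.03. Cd28, the costimulatory receptor, was the smallest T-cell member at 0.39. It was -0.32, 0.36 and 0.00 in casein plus E2 pools, 0.38, 0.10 and -0.12 in soy plus E2 pools, -0.45, 0.00 and 0.30 in soy pools and -0.10, 0.12 and -0.40 in casein pools. Its arrays overlapped, and its whole range was below 1 log2 unit.

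The coreceptors did not share 1 pattern. Cd8a, which pairs with Cd8b in the coreceptor of cytotoxic T cells, was -0.67, 0.48 and 0.35 in casein plus E2 pools, 1.34, -0.44 and 0.89 in soy plus E2 pools, -0.74, 1.39 and 1.90 in soy pools and -0.79, -0.51 and -0.67 in casein pools. Its difference was 2.01, and that of Cd8b 1.89. Of the 3 probe sets averaged for Cd8a, 2 differed by 2.72 and 2.73 without overlap, while the third differed by 0.38 and overlapped. Cd4, the coreceptor of helper T cells, which rat macrophages also carry, was 0.11, -0.02 and -0.16 in casein plus E2 pools, 0.25, -0.52 and 0.02 in soy plus E2 pools, 0.73, 0.41 and 0.92 in soy pools and -0.41, -0.03 and -0.54 in casein pools. Its arrays overlapped, with a difference of 0.47, and its highest arrays were those of the soy group whatever their spike-in side.

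Signalling and transcription genes of T cells followed the receptor chains. Lck, the kinase that phosphorylates CD3, was -1.01, 0.58 and 0.64 in casein plus E2 pools, 1.30, -0.58 and 0.72 in soy plus E2 pools, -1.39, 1.60 and 2.02 in soy pools and -1.57, -1.11 and -1.02 in casein pools. Its difference was 2.37, the largest of the kinases and adaptors. Zap70, which binds the phosphorylated chains, differed by 1.54, Prkcq, protein kinase C θ, by 1.59 and the adaptor Skap1 by 2.003. The transcription factors Tcf7 and Lef1, which act in naive and memory T cells, differed by 2.47 and 2.24.

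All 7 B-cell genes divided the arrays. Cd79b, the second chain of the B-cell receptor's signalling pair, was -0.92, 1.08 and 0.92 in casein plus E2 pools, 1.17, -1.76 and 1.03 in soy plus E2 pools, -2.34, 2.01 and 2.57 in soy pools and -2.16, -1.86 and -1.14 in casein pools. Its difference of 2.98 (7.91-fold) was the largest of the B-cell genes. Ms4a1, which encodes CD20, was -1.03, 1.06 and 1.12 in casein plus E2 pools, 1.03, -2.13 and 1.05 in soy plus E2 pools, -2.53, 2.19 and 3.17 in soy pools and -2.08, -1.53 and -1.46 in casein pools. Its difference was 2.90, and soy pools 1 and 3 were again the lowest and the highest array.

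Cr2, the complement receptor of B cells and follicular dendritic cells, was -1.17, 1.31 and 1.37 in casein plus E2 pools, 1.17, -1.70 and 1.11 in soy plus E2 pools, -1.91, 2.28 and 3.17 in soy pools and -1.69, -1.50 and -1.21 in casein pools, a difference of 2.94. The adaptor Bank1 differed by 2.31 and the tetraspanin Cd37 by 1.42. Cd22, an inhibitory receptor, differed by 0.93. Blk, a kinase of the Lck family in B cells, had the smallest difference, 0.84. It was -0.34, 0.48 and 0.32 in casein plus E2 pools, 0.31, -0.46 and 0.18 in soy plus E2 pools, -0.58, 0.96 and 1.12 in soy pools and -0.57, -0.28 and -0.43 in casein pools. The low and high spike-in arrays still did not overlap for Blk, whose lowest low spike-in value was 0.18 and highest high spike-in value -0.28.

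The genes shared with other leukocytes split into 5 that followed the lymphocyte genes and 1 that did not. Ptprc, which encodes CD45, was -1.09, 0.67 and 0.77 in casein plus E2 pools, 1.29, -1.19 and 1.02 in soy plus E2 pools, -1.21, 1.91 and 2.25 in soy pools and -1.37, -0.67 and -1.02 in casein pools. Its difference of 2.43 was the largest of the shared genes, and Ptprcap, which binds CD45, differed by 2.29. Il7r, the interleukin 7 receptor needed by naive T cells, was -0.88, 0.65 and 0.67 in casein plus E2 pools, 1.29, -0.63 and 0.66 in soy plus E2 pools, -1.09, 1.36 and 1.46 in soy pools and -1.19, -0.68 and -1.01 in casein pools. It differed by 2.23 without overlap, and Il2rg, the common γ chain it pairs with, by 1.69.

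Cd74, the chain that guides MHC class II assembly in B cells and other antigen-presenting cells, was -0.20, 0.10 and 0.08 in casein plus E2 pools, 0.18, -0.83 and 0.31 in soy plus E2 pools, -0.08, 0.68 and 0.96 in soy pools and -0.53, -0.14 and -0.55 in casein pools. Its difference was 0.68, and the nearest arrays of the sides were 0.08 and -0.08. Cd52, a small surface glycoprotein of lymphocytes and other leukocytes, was 0.01, -0.15 and -0.32 in casein plus E2 pools, -0.14, -0.57 and -0.26 in soy plus E2 pools, 0.34, 0.00 and 0.37 in soy pools and 0.00, 0.36 and 0.04 in casein pools. Its difference was -0.17, its arrays overlapped, and its lowest values were in pools that received E2.

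T-cell and B-cell genes were high on the same arrays but not by the same amount. The T-cell mean was 1.26 and the B-cell mean 0.81 in soy plus E2 pool 1, whereas in soy pool 3 they were 1.82 and 2.29. Soy plus E2 pool 2 had the widest gap, with -0.57 for the T-cell genes and -1.39 for the B-cell genes. Casein plus E2 pool 1 had the narrowest, at -0.89 and -0.85. The spike-in mean was 1.11 in casein pool 2 and between -0.22 and 0.26 on the other arrays. Casein pool 2 had the highest mean of the 30 lymphocyte genes among the high spike-in arrays (-0.76).

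**Figure D2:**
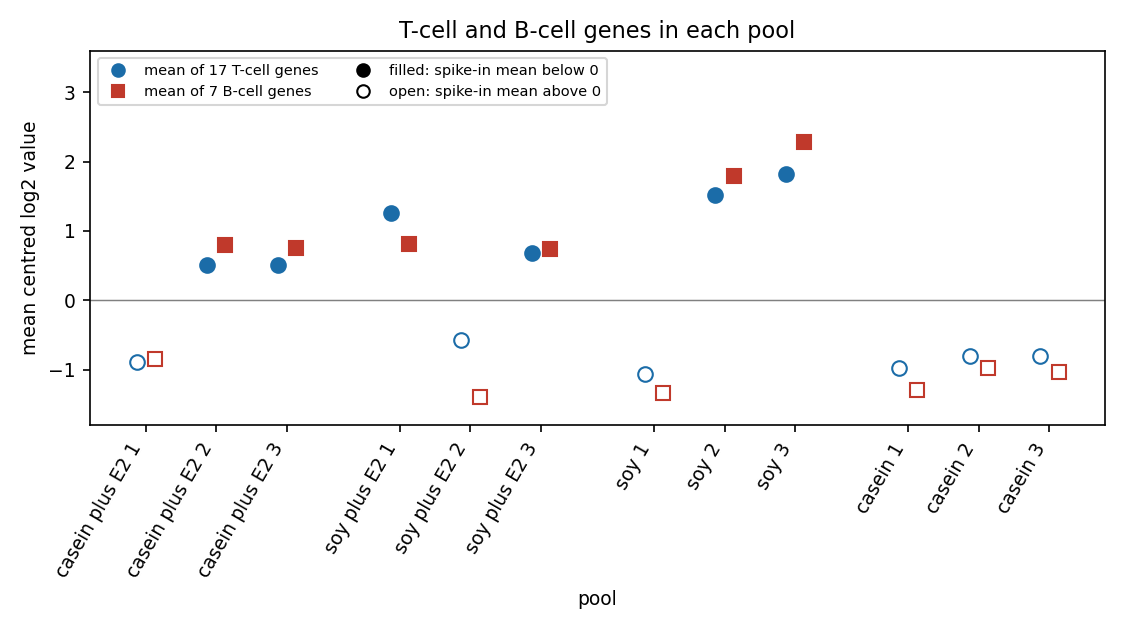
Mean centred log2 value of the 17 T-cell genes and of the 7 B-cell genes on each array, by group. Both means are above 0 on the 6 low spike-in arrays and below 0 on the other 6, and they lie farthest apart in soy plus E2 pool 2 (T minus B 0.82).

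The division was also read inside the 3 mixed groups, those that contain both kinds of array, where diet and hormone are the same. A gene divided without overlap over all arrays is necessarily divided inside each of these groups. The count there could therefore not fall below 27 of 30 and is no separate test of the division. What the groups add is the size of the differences. In 27 of 30 genes the low spike-in arrays were above the high spike-in array without overlap in each of casein plus E2, soy plus E2 and soy, whereas 9.68% of all genes showed this (1376 genes). The median difference over the 30 genes was 1.51 in casein plus E2, 1.66 in soy plus E2 and 2.49 in soy, against all-gene medians of -0.01, 0.00 and -0.03 in those groups. Cd3e differed by 2.17, 2.37 and 3.96 in the same order of groups, and Ms4a1 by 2.13, 3.17 and 5.21. Cd4 differed by -0.20, 0.65 and -0.07, so of these 3 groups soy plus E2 had the low spike-in arrays higher for Cd4. Casein had no low spike-in array and gives no such value.

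Other genes of lymphocytes and lymphoid tissue were read from lists of their own. Of 21 further T-cell genes 15 were higher on every low spike-in array (median difference 1.35), with Bcl11b, a T-lineage transcription factor, at 2.85 and Sh2d1a, an adaptor, at 2.52. Ctla4, an inhibitory receptor, was at -0.01 and overlapped. Of 16 further B-cell genes 10 divided the arrays (median 0.61), among them Pou2af1, a B-cell coactivator, at 2.94 and Stap1 at 1.89, while Ebf1, which adipocyte precursors also express, was at -0.27. Counted inside each of the 3 mixed groups, 17 of the 21 and 14 of the 16 genes were higher on the low spike-in arrays without overlap.

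Lymphoid tissue signals gave a mixed picture. Of 15 genes of homing and lymphoid chemokines 7 divided the arrays, including the early activation receptor Cd69 (2.86), the lymphotoxin Ltb (2.40) and the T-zone chemokines Ccl19 (2.07) and Ccl21 (2.06). Ccl21 was -0.08, 0.09 and 0.08 in casein plus E2 pools, 0.65, -1.36 and 0.46 in soy plus E2 pools, -1.49, 0.64 and 1.06 in soy pools and -2.06, -1.76 and -1.03 in casein pools. Cxcl13, the chemokine of B-cell follicles, was at -0.54 over all arrays and Ltbr, the lymphotoxin receptor, at -0.30. Inside the groups, however, the low spike-in arrays were higher for Cxcl13, by 0.95 in casein plus E2, 2.58 in soy plus E2 and 0.53 in soy, without overlap in any of them. Inside each of the 3 mixed groups 13 of the 15 genes were higher without overlap, Lta and Ltbr being the exceptions. Of 5 genes of high endothelial venules, the vessels through which lymphocytes enter a node, 0 divided the arrays, with Madcam1 at -0.10, Chst2 at -0.06 and Glycam1, which mammary epithelium also makes, at 2.72 with overlap. Inside the 3 mixed groups 1 of these 5 genes, Fut4, was higher in each without overlap. Of 7 genes of lymphatic endothelium 1 divided the arrays by either count, Ccl21 again, and the list median was 0.10. How much node tissue a pool held was not measured.

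Among other leukocytes, 14 of 17 pan-leukocyte genes divided the arrays (median 1.14, Coro1a 2.19 and Cd53 1.84) and 4 of 7 MHC class II genes (median 0.81, Cd74 counted among them). Plasma cell and germinal centre genes gave 2 of 9, Jchain at 1.55 and Mzb1 at 0.90, and dendritic cell genes 4 of 8, with the maturation marker Cd83 at 1.38. Natural killer and cytotoxic genes gave 1 of 15 (Prf1, perforin, 1.71), and 6 of 15 when counted inside each of the 3 mixed groups. Macrophage genes gave 1 of 12 higher (Lyz2, 0.94) by either count, with a median of 0.03. Neutrophil, mast cell, proliferation, adipocyte, luminal, basal, milk, vascular endothelial, muscle, liver and erythroid lists gave 0 genes each. Inside the 3 mixed groups they gave 0 genes higher on the low spike-in arrays, apart from 1 of 7 neutrophil genes and 2 of 8 muscle genes. Lower there without overlap in each group were 3 of 8 basal genes (Krt5, Krt14 and Acta2) and 1 of 14 luminal genes (Gata3). So were 1 of 8 muscle genes (Myh1), 1 of 12 macrophage genes (Cd163) and, of the homing list, Ltbr. The share of all genes lower in this way was not computed. The adipocyte median was -0.26 and the milk median 1.23, both with overlapping arrays.

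**Figure D3:**
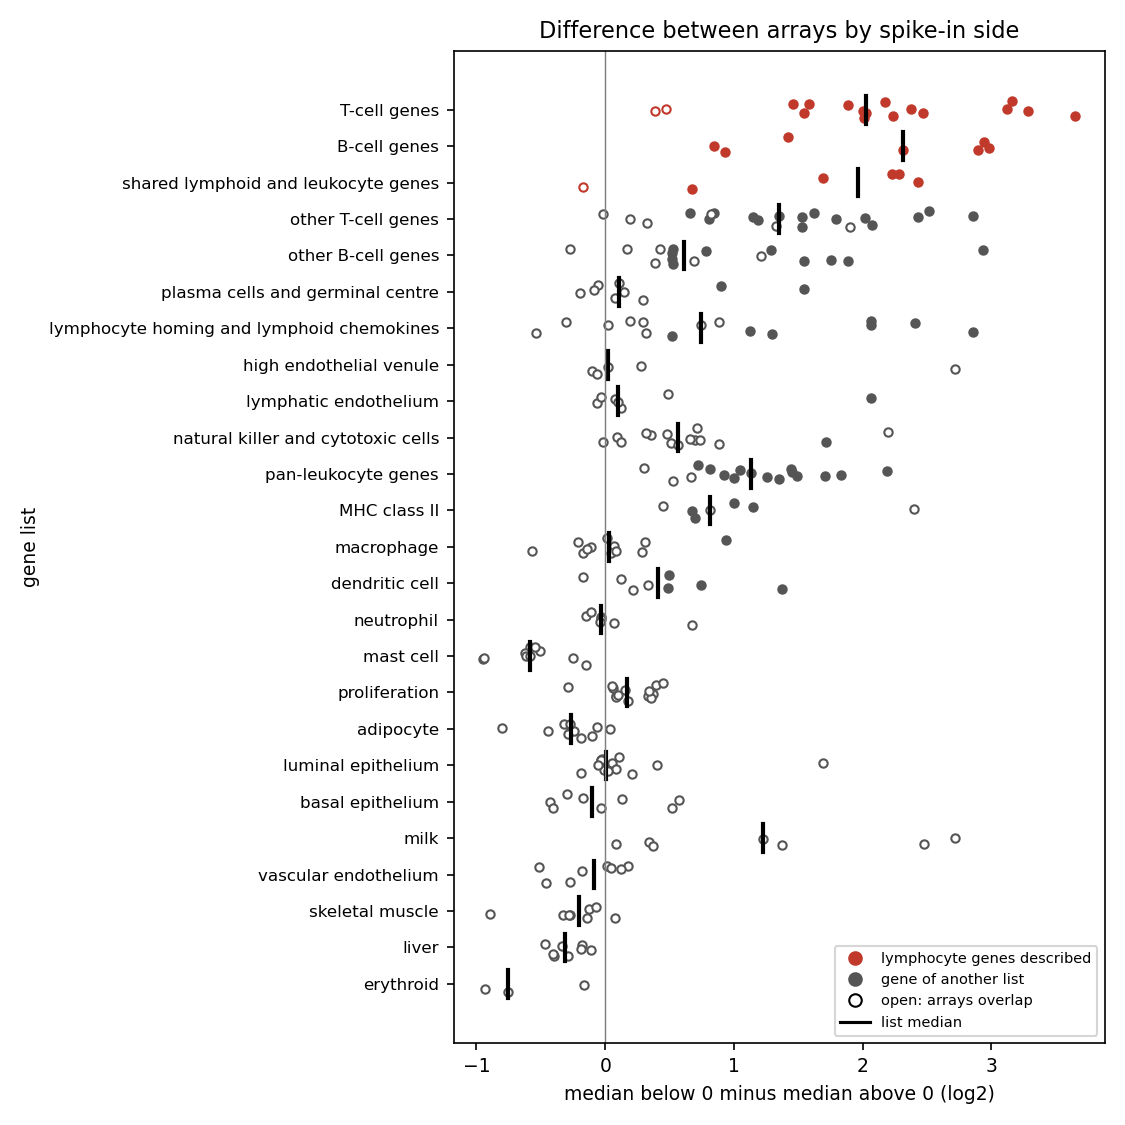
Difference between the medians of the low and the high spike-in arrays (log2) for each gene of the member lists and of the other cell type lists, 1 point a gene, with filled points for genes whose arrays do not overlap. The member lists lie at medians of 1.96 to 2.31, pan-leukocyte and further T-cell genes at 1.14 and 1.35, and the macrophage list at 0.03.

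Outside these lists, the named genes with the highest differences were Tnfrsf14 (3.15), a receptor of lymphocytes, the immunoglobulin segment Ighvl1 (3.05), Il22ra2 (2.99), a decoy receptor for interleukin 22, the glycosyltransferase B3gnt5 (2.87) and the lectin Clec4m (2.67). Those lower on every low spike-in array were less far apart, with Cped1 at -0.81 and Bnc2 at -0.58 as the farthest.

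For the treatments, changes were tested with limma over all 14217 genes, and genes with a Benjamini-Hochberg adjusted p below 0.05 are those called. E2 in casein-fed rats left 0 of 30 lymphocyte genes called, against 2.43% of all genes, and 0 of 30 at an unadjusted p under 0.05, against 19.6%. The median change was 0.69 over the 30 genes and 0.02 over all genes, and 29 of 30 had a positive value. Cd79b had the largest value, 1.76 ± 1.39 (SE, limma adjusted p = 0.531), and Cd3e had 1.12 ± 1.22 (limma adjusted p = 0.667). In 9 of the 30 genes every casein plus E2 pool was above every casein pool, against 39.8% of all genes whose groups did not overlap in either direction. Without casein plus E2 pool 1 the median was 1.40, and with the spike-in side as a term it was -0.25, with 0 of 30 called beside 1.73% of all genes.

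E2 in soy-fed rats also left 0 of 30 called, against 0.218% of all genes, and 2 of 30 at an unadjusted p under 0.05, against 20.6%. The median was -0.47, and 2 of 30 values were positive. Cd4 and Cd52 had the smallest p-values. In Cd4 all soy plus E2 pools (0.25, -0.52 and 0.02) lay below the soy pools (0.73, 0.41 and 0.92), a change of -0.77 ± 0.21 (SE, limma adjusted p = 0.117). In Cd52 they were -0.14, -0.57 and -0.26, against 0.34, 0.00 and 0.37 in soy pools, a change of -0.56 ± 0.15 (SE, limma adjusted p = 0.114). These were the 2 of 30 genes whose groups did not overlap, against 24.6% of all genes. Leaving out soy plus E2 pool 2 gave a median of 0.17 and leaving out soy plus E2 pool 1 one of -0.80. Leaving out a soy pool gave -1.39 (pool 1), -0.03 (pool 2) or 0.12 (pool 3). Between the single soy plus E2 and soy pools on the high spike-in side the median was 0.38, whereas between the pools on the low spike-in side it was -0.79 with 0 of 30 values positive. With the spike-in side as a term 0 of 30 were called, against 0.513% of all genes. With arrays weighted by their fit to the group means Cd22 was called (-1.36, limma adjusted p = 0.0456), against 14.3% of all genes.

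Averaged over both diets, E2 left 0 of 30 called, against 12.2% of all genes, with a median of 0.14. Cd52 came closest at -0.40 ± 0.12 (SE, limma adjusted p = 0.0509), and 1 gene of 30 had an unadjusted p under 0.05, against 29.0% of all genes. Cd52 was the 1 gene called after quantile normalization (beside 13% of all genes), with each array centred on its median (12.1%), with 12 separate arrays (18.6%), leaving out casein plus E2 pool 2 (12%) and leaving out soy pool 2 (7.90%). Over all alternatives its limma adjusted p lay between 0.0215 and 0.208. With the spike-in side as a term the median was -0.32 and 5 genes were called lower, Prkcq (-0.81), Skap1 (-0.74), Cd37 (-0.70), Cd22 (-0.68) and Il2rg (-0.63), 5 of 30 beside 13.4% of all genes called in that fit.

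Soy without E2 gave the highest median. All 30 genes had a higher mean in soy pools than in casein pools, with a median of 1.65 against -0.01 over all genes, but 0 of 30 were called, as were 0% of all genes. At an unadjusted p under 0.05 limma had 12 of the 30 genes and 10.4% of all genes. Cr2 had 2.65 ± 1.27, Ms4a1 2.64 ± 1.39 and Cd3e 2.50 ± 1.09 (SE, limma adjusted p = 0.510, 0.544 and 0.476). In each of them soy pool 1 lay among the casein pools or below them, as in Ms4a1 with -2.53, 2.19 and 3.17 in soy pools against -2.08, -1.53 and -1.46 in casein pools. In 3 of the 30 genes (Cd4, Cd37 and Cd74) all soy pools were above all casein pools, against 13.3% of all genes with groups that did not overlap.

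The soy values moved with the spike-in side. Of the soy pools 2 were low spike-in arrays, and of the casein pools 0. With the spike-in side as a term the median over the 30 genes was 0.31, and between soy pool 1 and the casein pools, all high spike-in arrays, it was -0.15. In that last comparison Ms4a1 was at -0.84, Cd3g at -0.78, Cd79b at -0.62 and Cd3e at -0.14. Without soy pool 1, limma called 8 genes higher (Cd247, Cd2, Cd8b, Lck, Zap70, Lef1, Cd22 and Blk), against 2.30% of all genes. With arrays weighted by their fit to the group means, 28 of 30 were called, against 11.2% of all genes.

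Cd4 was 1 of the 3 genes whose soy pools did not overlap the casein pools, with 0.73, 0.41 and 0.92 in soy pools and -0.41, -0.03 and -0.54 in casein pools. Its change of 1.01 ± 0.21 had the smallest p of the 30 genes but was not called (SE, limma adjusted p = 0.391). The macrophage list of 12 genes had a median change of 0.58 in the same comparison, with 0 genes called. The part of macrophages in the Cd4 values was not tested.

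Under E2, soy against casein left 0 of 30 called, against 0.00703% of all genes, and 0 of 30 at an unadjusted p under 0.05, against 5.10%. The median was 0.50, with 25 of 30 values positive, and groups without overlap were seen in 0 of 30 genes, against 23.3% of all genes. Without casein plus E2 pool 1 the median was -0.20, without soy plus E2 pool 2 it was 1.06 and without soy plus E2 pool 1 it was 0.11. With the spike-in side as a term it was 0.15. The diet by E2 interaction left 0 of 30 called, as it did 0% of all genes, with 1 of 30 at an unadjusted p under 0.05, against 6.53%. Its median was -1.13, and 1 value was positive. Cd4 had the smallest p (-1.11 ± 0.32, SE, limma adjusted p = 0.570). With the spike-in side as a term the median of the interaction was -0.13, with 9 of 30 values positive, and within the high spike-in arrays, where 3 of the 4 groups had 1 pool, it was 0.31. Comparisons that share a group of pools are not independent of each other.

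**Figure D4:**
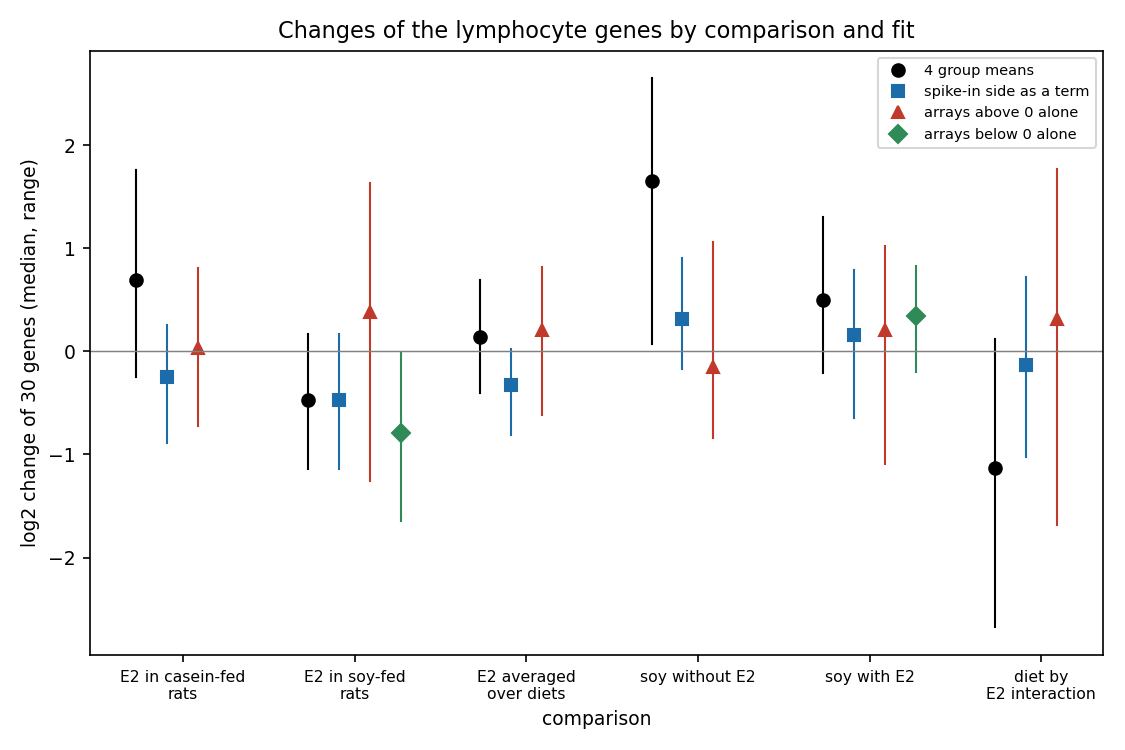
Median (point) and range (line) of the fitted log2 changes of the 30 lymphocyte genes for each of the 6 comparisons, in the fit of the groups alone, with the spike-in side as a term, and on each spike-in side alone where pools allow. The soy median without E2 is 1.65 in the first fit, 0.31 with the side as a term and -0.15 within the high spike-in arrays.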

How the data were processed

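Pooled mammary RNA (8 µg a sample) was read on 12 Affymetrix rat arrays, 4 groups of 3, grouped and numbered by their titles. A description label speaks of liver where the source label says mammary gland, and mammary gland was taken as the tissue. The deposited table holds 31099 probe sets as values that were read as log2 from their range, already centred per probe set by the authors. The submitters' processing notes name GCOS, the Affymetrix software. How probe sets were summarised and normalized, and the log base, is not given in the sources used here.

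Probe sets with 1 gene symbol (20826) were averaged to 14217 genes. With casein plus E2 pools 2 and 3 averaged there were 11 samples, and 4 group means were fitted by limma 3.58.1 (lmFit and eBayes) in R 4.3.3, and p-values were two-sided and Benjamini-Hochberg adjusted over all genes. The code was tested on simulated data. Spike-in sides were the sign of the mean of 18 control probe sets, with the pair counted once in medians (5 low and 6 high samples). The named genes were all measured members, with every array given for a fixed set and for the extremes of each list, and up to 4 genes of each other list. The members and lists were chosen with earlier results of these data known, and the spike-in split too. Alternatives were quantile normalization, array centring, 12 separate arrays, pool number as a block, array weights, the spike-in side as a term, each side alone, the probe set of largest SD, Bio spike-ins alone and leaving out each array. Precision rests on the number of arrays.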

Additional observations from a re-analysis of the deposited data

How the results depend on the processing

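Because the deposited values are centred, dim probe sets could not be filtered and signal over background is unknown. The count of 27 of 30 genes divided by the spike-in side was 27 under every alternative run for it (quantile normalization, array centring, the probe set of largest SD, Bio spike-ins alone, and, chosen after seeing the data, each array left out and the count inside 3 groups, which was also used for the other lists). Several of these could not lower the count. Leaving out an array or counting inside groups cannot undo a division without overlap, and Bio spike-ins alone gave the same sides. Array centring moved values little, as array medians lay between -0.025 and 0.011. For the treatments the count of called lymphocyte genes, 0 in each of the 6 limma comparisons, was 1 for E2 in soy-fed rats with array weights (Cd22). For E2 averaged over diets it was 1 with quantile normalization, 1 with each array centred on its median, 1 with 12 separate arrays (Cd52 each time), 5 with the spike-in side as a term, and 0 to 1 on leaving out an array (Cd52 called without casein plus E2 pool 2 or soy pool 2). For soy without E2 it was 28 with array weights and 0 to 8 on leaving out an array. The cause was not tested.

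The median change for soy without E2 was 0.31 with the spike-in side as a term and -0.15 within the high spike-in arrays, and 1.16 to 2.48 on leaving out an array. The interaction had a median of -0.13 with the side as a term and 0.31 on the high spike-in arrays alone (1 pool in 3 of the 4 groups), with a range of -2.02 to -0.59 on leaving out an array. For E2 the medians on leaving out an array were 0.68 to 1.40 in casein-fed rats, -1.39 to 0.17 in soy-fed rats and -0.30 to 0.52 averaged, and for soy with E2 they were -0.20 to 1.06 (0.15 with the side as a term). On the low spike-in arrays alone the median for E2 in soy-fed rats was -0.79 and for soy with E2 0.34. A sign opposite to the fit of the groups appeared for Cd3e under E2 in casein-fed rats (-0.32 with the side as a term), Ms4a1 under E2 in soy-fed rats (0.40 within the high spike-in arrays, -2.70 to 0.15 on leaving out an array) and Il2rg for the E2 average (0.082 after quantile normalization, -0.55 to 0.25 on leaving out an array). Ranges on leaving out an array also crossed 0 for Skap1 (-0.64 to 0.21) and Cd37 (-0.58 to 0.075) in the E2 average and for Cd3e in soy with E2 (-0.12 to 1.75). For soy without E2 within the high spike-in arrays the values were Cd3e -0.14, Cd3g -0.78, Cd79b -0.62, Ms4a1 -0.84, Cr2 -0.44, Lck -0.15 and Cd28 -0.33 (Cd28 -0.17 with the side as a term, -0.10 to 0.28 on leaving out an array), and Cd3e in the interaction was 0.61. The cause was not tested.

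Pool numbers did not pair the samples: same-numbered pools of different groups had correlated deviations of -0.42 to 0.46, over 0.1 in 5 of 18 pairs. With the pool number as a replicate block limma called 0 lymphocyte genes in all 6 comparisons, and the medians were 0.85, -0.47, 0.21, 1.65, 0.36 and -1.19 for E2 in casein-fed rats, E2 in soy-fed rats, the E2 average, soy without E2, soy with E2 and the interaction. Over all genes that fit called 13 (346 without the block), 13 (31), 749 (1741), 0, 0 and 0.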

Other observations

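Among the other lymphoid genes called with E2 averaged over diets were 2 granzymes, higher, and the follicle chemokine, lower. The granzymes were 2 of 15 natural killer and cytotoxic genes and the chemokine 1 of 15 homing and chemokine genes. Beside 12.2% of all genes called, the first count is close to that share and the second below it. Called too were Ebf1 (-0.55, 1 of 16 further B-cell genes) and Xbp1 (0.37, 1 of 9 plasma cell and germinal centre genes). So were Chst2 (-0.46) and Glycam1 (3.78) of 5 high endothelial venule genes, Reln (0.80) of 7 lymphatic endothelial genes and Batf3 (0.55) of 8 dendritic cell genes. Gzma, a granzyme of natural killer and cytotoxic T cells, was 0.23, 0.98 and 0.85 in casein plus E2 pools, 1.17, 1.64 and 0.33 in soy plus E2 pools, -0.35, -0.46 and -1.32 in soy pools and -0.23, -1.40 and -0.26 in casein pools. With E2 it was higher by 1.48 ± 0.32 (SE, limma adjusted p = 0.0226) averaged over diets. Gzmb, another granzyme, rose by 0.67 ± 0.14 (SE, limma adjusted p = 0.0194). Both lost their call in some alternatives, with adjusted p from 0.00677 to 0.201 for Gzma and from 0.00181 to 0.123 for Gzmb, and the other 13 genes of the list, perforin (Prf1), Gzmk and Gzmm included, were not called.

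Cxcl13, which draws B cells into follicles, was -1.98, -1.01 and -1.06 in casein plus E2 pools, -1.02, -3.14 and -0.10 in soy plus E2 pools, 0.78, 1.12 and 1.51 in soy pools and 0.10, 1.06 and 0.97 in casein pools. It fell by 2.38 on the log2 scale with E2 averaged over diets (SE 0.49, limma adjusted p = 0.0192, 0.0051 to 0.112 over its alternatives), while Cr2 and Ms4a1, genes of the cells it attracts, had 0.28 ± 0.96 and 0.38 ± 1.04 and were not called (SE, limma adjusted p = 0.879 and 0.849).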
